A study of Mus musculus with 6 samples.

Results

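The genes described here import cystine, make cysteine from homocysteine, and build, recycle and break down the antioxidant tripeptide glutathione. They were chosen by name and are Slc7a11, Cth, Cbs, Gclc, Gclm, Gss, Gsr, Chac2, Ggt5 and Ggt7, 10 of the 54433 rows of the deposited gene table. RNA sequencing of the MC3T3-E1 line, a mouse osteoblast-like cell line, gave 6 libraries. The 3 WT libraries came from wild-type cells grown in Dulbecco's modified Eagle medium. The 3 FR libraries came from cells of the same line that were resistant to 30 ppm fluoride and had been obtained, per the protocol, by continuous fluoride exposure in a 10 ppm gradient. The treatment label of the FR samples gives a 30 ppm gradient, and resistance cannot be told apart from the exposure itself. The growth protocol, with 10% fetal bovine serum, was the same for both groups. The protocol mentions clones without saying how many gave the FR libraries. Nothing in the labels says that the 3 libraries per group were separate cultures, and the p-values therefore cover only library-to-library spread, which may be technical.

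Cells take up cystine through an exchanger made of the light chain SLC7A11 and the heavy chain SLC3A2, which releases glutamate in return, and reduce the cystine to cysteine. Cysteine can also be made inside the cell by transsulfuration, in which CBS joins homocysteine and serine to cystathionine and CTH splits cystathionine into cysteine. Glutamate-cysteine ligase, with the catalytic subunit GCLC and the modifier subunit GCLM, performs the rate-limiting step of glutathione synthesis, and GSS adds glycine. GSR returns oxidised glutathione to its reduced form at the expense of NADPH. Enzymes of the ChaC family degrade glutathione in the cytosol, and gamma-glutamyltransferases degrade it outside the cell. Many of these genes are known targets of the transcription factors NRF2 (gene Nfe2l2), which answers oxidants and electrophiles, and ATF4, which answers amino acid shortage and other stresses.

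The libraries held 25700500 to 27140700 counts in WT and 19246100 to 25185700 in FR, at which 3 counts in a library equal 0.110 to 0.156 CPM (counts relative to library size, scaled with TMM factors). That limit covers counting error only. Of 12 osteoblast markers 7 could be tested and all 7 fell, with a summed level of 17300 to 17600 CPM in WT and 4850 to 4880 CPM in FR, while Sp7, Alpl, Bglap and Ibsp were at or below 0.312 CPM in every library. Muscle markers, mostly Des, summed to 1.91 to 2.33 CPM in WT and 6.44 to 7.31 CPM in FR, with Myod1 at 0. Endothelial markers, mostly Emcn, summed to 3.30 to 3.82 CPM in WT and 2.12 to 2.44 CPM in FR, and the adipocyte and epithelial lists to at most 1.94 CPM in any library. Macrophage markers summed to 6.56 to 7.99 CPM in WT and 10.3 to 12.2 CPM in FR, with Csf1r and Cd68 higher, Lyz2 lower and Ptprc, Adgre1 and Itgam at or below 0.260 CPM. Chondrocyte markers, almost all Sox9, summed to 70.9 to 74.0 CPM in WT and 48.7 to 51.7 CPM in FR. The part of these marker changes in the results below was not tested.

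Transcripts for the cystine exchanger and for the last step of transsulfuration were lower in FR, whereas the genes for glutathione synthesis and recycling differed little. Slc7a11 fell 3.57-fold, Cth fell 2.73-fold and Ggt7 fell 9.04-fold. Gclc, Gclm and Gsr rose by 10.1%, 10.7% and 8.39%, Chac2 fell by a factor of 1.17, and Gss did not pass the test. Cbs and Ggt5 were too low to be tested. The test was the quasi-likelihood F-test of edgeR with Benjamini-Hochberg adjustment over all 14889 tested genes and a threshold of 0.05.

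Most of the transcriptome differed between the groups: 70.1% of all tested genes passed in one direction or the other, 34.6% as higher and 35.5% as lower. Of the 8 tested genes of the set, 3 were higher, 4 were lower and 1 did not pass. A fall of at least 2-fold was found for 11.4% of all tested genes and for 3 of the 8. No gene of the set rose 2-fold, where 7.40% of all genes did. WT and FR libraries were fully separated in CPM for 7 of the 8 genes (3 higher, 4 lower) and for 72.4% of all tested genes (35.7% higher, 36.6% lower). The median log2 fold change (FR over WT) of the 8 genes was −0.14, and that of all tested genes was 0.00.

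**Figure D1:**
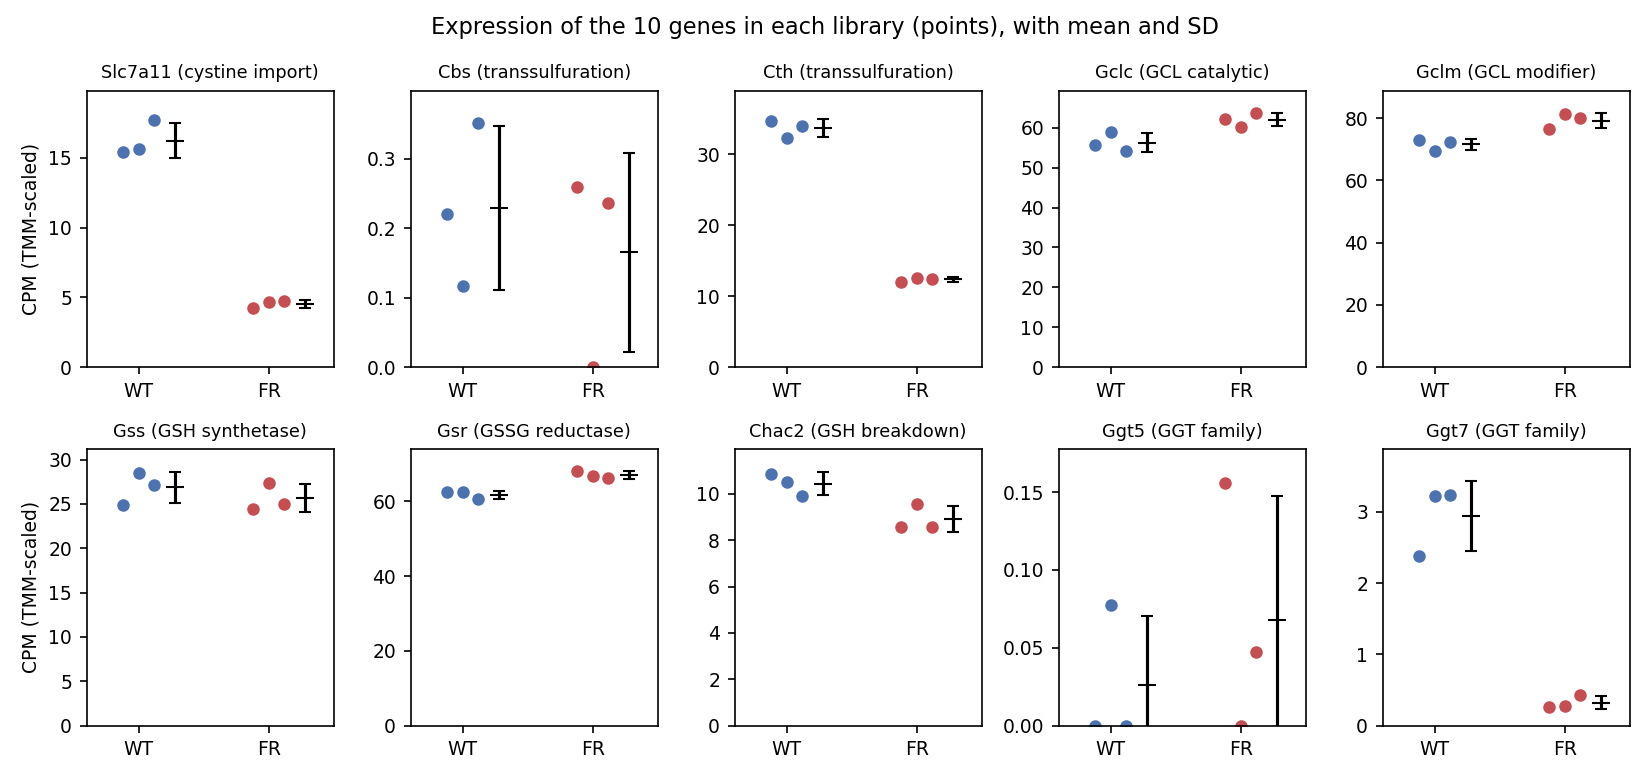
Level of each of the 10 genes in the 3 WT and 3 FR libraries, in TMM-scaled CPM on linear axes that start at 0. Points are libraries, and the bar beside them is the mean with the SD. Slc7a11, Cth and Ggt7 are separated widely, the WT and FR points of Gclc, Gclm, Gsr and Chac2 lie close without overlap, and those of Gss, Cbs and Ggt5 overlap.

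The cystine exchanger gene Slc7a11 (ENSMUSG00000027737) had 15.4, 15.6 and 17.7 CPM in the WT libraries and 4.21, 4.64 and 4.72 CPM in the FR libraries. The 3 FR libraries were all far below the lowest WT library, and the groups did not overlap. The log2 fold change was −1.84 ± 0.10 (SE; 95% interval −2.05 to −1.62; edgeR adjusted p = 2.46e-15). Of all tested genes, 6.75% had a lower fold change. In bulk RNA, fewer cells that express a gene and less RNA per cell cannot be told apart. The counts of Slc7a11 held fractions in all 6 libraries, and 4.27% of the 31-base words of its transcripts also occur in transcripts of other genes, mainly Tuba1a and predicted genes.

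The partner chain gene Slc3a2, whose product also serves other amino acid transporters, was more abundant and changed less. It had 206, 202 and 204 CPM in WT and 153, 161 and 157 CPM in FR, a log2 fold change of −0.38 ± 0.03 (SE; edgeR adjusted p = 2.22e-12). The ratio of Slc7a11 to Slc3a2, taken from CPM per kb of the deposited gene length, was 0.0228, 0.0235 and 0.0264 in the WT libraries. In the FR libraries it was 0.00841, 0.00880 and 0.00918. The light chain transcript was therefore lower relative to its partner by a factor of 2.75, without overlap between the groups (exact two-sided permutation test, p = 0.10, the smallest that 3 against 3 libraries allow; 0.25 after adjustment over 5 ratios).

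The upstream sequence of Slc7a11 is shown because it carries a pair of matches to the core of the element that ATF4 and C/EBP factors bind, and because a list of ATF4 and related genes is described further on. Both motif cores were searched on both strands in the RefSeq promoter windows (GRCm38.p6; 250 bases before to 50 after each start), which matched 6 of the 10 genes. The searched letters were TGATGNAA for the C/EBP-ATF response element and TGACNNNGC for the antioxidant response element that NRF2 binds, and the matches printed here do not overlap each other. The stretches below end 1 base before the table's start for Slc7a11 (chr3:50443614-50443733, minus strand) and 81 bases before it for Gclm (chr3:122245377-122245476, plus strand), and capitals mark the matches.
Slc7a11: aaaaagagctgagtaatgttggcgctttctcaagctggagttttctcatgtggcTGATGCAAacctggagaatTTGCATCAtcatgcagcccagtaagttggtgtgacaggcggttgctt
Gclm: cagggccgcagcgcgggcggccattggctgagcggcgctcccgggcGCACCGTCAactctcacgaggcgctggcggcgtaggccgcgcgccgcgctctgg

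In Slc7a11 the matches to TGATGNAA began 66 and 47 bases before the start, the first on the gene's strand and the second on the other strand. At least 1 such match was present in 3.97% of the 32851 windows of the table, and 2 or more in 23 windows (0.0700%). Gclm held 1 match to TGACNNNGC, on the opposite strand, beginning 134 bases before the start, as did 12.4% of all windows at some position. Slc7a11 held no match to TGACNNNGC in its window, and Gclm none to TGATGNAA. The windows of Cbs, Chac2, Ggt7 and Gss held neither, which says only that these letters are not in those windows. Cth, Gclc, Gsr and Ggt5 had no window and were not searched. A match is a description of the letters and was not measured as binding.

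Among 9 tested genes that carry cystine, cysteine, glutamate or their exchange partners, 3 rose, 4 fell and 2 were short of the threshold (median log2 change 0.02). Slc1a3, a glutamate transporter, fell from 157 ± 3.08 to 89.4 ± 3.96 CPM, and Slc7a5, a large neutral amino acid transporter that shares the heavy chain, fell from 265 ± 7.72 to 203 ± 4.44 CPM (n = 3 each, SD). The glutamine transporter gene Slc38a1 rose from 34.3 ± 1.53 to 72.6 ± 0.859 CPM. Mfsd12, which is needed for cysteine import into lysosomes, rose from 31.8 ± 1.22 to 45.1 ± 1.48 CPM, although 26.8% of its 31-base words are shared with the transcript 4930404N11Rik. Ctns, which exports cystine from lysosomes, did not pass (log2 fold change 0.03 ± 0.06 SE, edgeR adjusted p = 0.690).

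Transsulfuration was represented almost entirely by Cth. Cth (ENSMUSG00000028179), the cysteine-releasing enzyme, had 34.7, 32.3 and 34.0 CPM in WT and 12.0, 12.6 and 12.5 CPM in FR. The 3 FR values lie within 1 CPM of each other and far under the WT range. The log2 fold change was −1.45 ± 0.07 (SE; 95% interval −1.58 to −1.31; edgeR adjusted p = 9.51e-18), and 8.5% of all tested genes had a lower one. Its transcripts share 0.0363% of their 31-base words with any other gene, and no library gave it a fractional count.

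Cbs (ENSMUSG00000024039), the first enzyme of the route, had 6, 3 and 9.09 counts in WT and 5, 0 and 5 counts in FR. Those values overlap, and the highest was 9.09 counts. The fit without the filter on low counts gave a log2 fold change of −0.55 ± 0.76 (SE; edgeR adjusted p = 0.584), so no difference was detectable at this depth. Per kb of gene length, the mean level of Cth in WT was 18.5 CPM per kb and that of Cbs 0.0368 CPM per kb.

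The methionine cycle feeds homocysteine into this route, and 7 of its 15 tested genes rose and 6 fell (median log2 change 0.09). The 6 include Ahcy, whose direction is uncertain, as described below. Mtr, the methionine synthase that turns homocysteine back into methionine, rose from 44.0 ± 0.393 to 66.1 ± 1.09 CPM (a log2 fold change of 0.59 ± 0.04 SE), and Mtrr, which reactivates it, rose from 21.1 ± 0.324 to 32.9 ± 1.59 CPM. Mtap, of the salvage route that regenerates methionine, rose from 195 ± 1.16 to 427 ± 1.84 CPM (n = 3 each, SD). The other listed genes of that route were mixed: Apip fell from 20.1 ± 0.683 to 11.8 ± 1.13 CPM. Mri1 fell slightly, Enoph1 rose slightly and Adi1 did not pass (log2 fold changes −0.16, 0.13 and 0.09). Nnmt, which uses the methyl donor to methylate nicotinamide, fell from 18.2 ± 1.15 to 2.29 ± 0.394 CPM.

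Ahcy, which releases homocysteine from S-adenosylhomocysteine, was listed with a fall from 101 ± 2.13 to 12.1 ± 2.21 CPM (a log2 fold change of −3.04 ± 0.08 SE, edgeR adjusted p = 1.95e-12). This fall did not hold once its near-identical copy was counted with it. The predicted gene Gm4737, named after its values were seen, shares 68.7% of the 31-base words of Ahcy and went from 144 ± 2.25 to 272 ± 1.76 CPM (n = 3 each, SD). The sum of the pair was 244, 241 and 249 CPM in WT and 283, 285 and 283 CPM in FR, a log2 fold change of 0.21 ± 0.03 (SE; edgeR adjusted p = 3.94e-08), higher and not lower. The direction for Ahcy thus differed between the separate and the summed counts, and the value for Ahcy alone is uncertain.

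Of 12 tested genes that use cysteine or its derivatives or handle sulfide, sulfite or sulfate, 5 rose, 3 fell and 4 were short of the threshold (median log2 change 0.05). Nfs1, which takes sulfur from cysteine for iron-sulfur clusters, rose from 26.7 ± 0.40 to 36.3 ± 0.992 CPM, and Got2, the mitochondrial aspartate aminotransferase, from 228 ± 8.84 to 280 ± 9.46 CPM (30.9% of the Got2 words are shared with pseudogenes). Papss1, which activates sulfate, fell from 153 ± 5.25 to 117 ± 4.68 CPM, and the sulfite oxidase gene Suox from 15.7 ± 0.910 to 11.5 ± 0.542 CPM (n = 3 each, SD). Papss2, the less abundant gene for the same reaction as Papss1, rose from 9.33 ± 0.740 to 12.7 ± 0.959 CPM.

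Both subunits of glutamate-cysteine ligase were slightly higher in FR. Gclc (ENSMUSG00000032350) had 55.7, 58.9 and 54.3 CPM in WT and 62.2, 60.2 and 63.6 CPM in FR. Gclm (ENSMUSG00000028124) had 73.0, 69.6 and 72.4 CPM in WT and 76.5, 81.3 and 79.9 CPM in FR. In both genes the lowest FR library stood just above the highest WT library. The log2 fold changes were 0.14 ± 0.04 for Gclc (SE; 95% interval 0.05 to 0.23; edgeR adjusted p = 0.00464) and 0.15 ± 0.04 for Gclm (SE; 95% interval 0.07 to 0.22; adjusted p = 0.00106).

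The modifier and catalytic transcripts kept nearly the same proportion. The ratio of Gclm to Gclc per kb was 0.802, 0.724 and 0.817 in the WT libraries and 0.754, 0.827 and 0.769 in the FR libraries, with overlapping values (exact two-sided permutation test, p = 1.0). In the GRCm38 annotation, Gclm overlaps the predicted antisense gene Gm17494 over 4.71% of its exonic bases. That gene was at 4.83 CPM in WT and 4.97 CPM in FR. Of the Gclm words, 6.82% occur in other genes. Ppia, at a mean of 30510 counts, shares 3.55%, and Gm10123, at a mean of 12270 counts, shares 3.38%. Gclm had fractional counts in 3 libraries, and the part of shared reads in its rise was not tested.

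Gss (ENSMUSG00000027610), which completes glutathione, had 24.9, 28.5 and 27.2 CPM in WT and 24.4, 27.4 and 25.0 CPM in FR. The groups overlap, and the log2 fold change of −0.06 ± 0.06 (SE; edgeR adjusted p = 0.390) did not pass, with a 95% interval from −0.19 to 0.07. Relative to Gclc per kb, Gss went from 0.832 ± 0.0472 to 0.721 ± 0.0623 (n = 3 each, SD), and the groups overlapped (exact two-sided permutation test, p = 0.20; 0.25 after adjustment).

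Glutathione synthesis draws on glutamate and glycine. Of 11 tested genes that make, use or carry glutamate, serine or glycine, 4 rose and 7 fell (median log2 change −0.14). The 7 are 63.6% of them, against 35.5% of all tested genes called lower. Genes that supply these amino acids and genes that consume them are both in the list. Glud1, glutamate dehydrogenase, rose from 295 ± 5.82 to 473 ± 7.52 CPM (n = 3 each, SD). Psph, the last enzyme of serine synthesis, fell from 69.0 ± 1.42 to 39.7 ± 1.43 CPM, and Aldh18a1, which starts proline synthesis from glutamate, from 179 ± 6.05 to 133 ± 2.79 CPM.

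Gsr (ENSMUSG00000031584), glutathione reductase, had 62.4, 62.4 and 60.5 CPM in WT and 68.1, 66.7 and 66.2 CPM in FR. The FR libraries were all higher, by a small margin, with a log2 fold change of 0.12 ± 0.04 (SE; 95% interval 0.04 to 0.20; edgeR adjusted p = 0.00871). This call ended when the filter on low counts was dropped (edgeR adjusted p = 0.0604). Relative to Gss per kb it was 1.69 ± 0.126 in WT and 1.93 ± 0.132 in FR, with overlap (exact two-sided permutation test, p = 0.20; 0.25 after adjustment).

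The reductase consumes NADPH. Of 13 tested genes that make NADPH, make its precursor NADP (the NAD kinases) or act in the same routes, 7 rose and 5 fell (median log2 change 0.14). Nadk2, the mitochondrial NAD kinase, rose from 67.5 ± 3.07 to 202 ± 2.60 CPM, and Idh2, the mitochondrial isocitrate dehydrogenase, from 204 ± 0.629 to 267 ± 5.98 CPM (n = 3 each, SD). Aldh1l2, of mitochondrial folate metabolism, fell from 274 ± 5.50 to 194 ± 7.90 CPM, and the malic enzyme gene Me1 from 137 ± 4.89 to 94.7 ± 2.00 CPM, where 36.9% of the Me1 words occur in other genes. Aldh1l2 shares 13.5% of its words with D10Wsu102e, a gene at a mean of 4046 counts, and had fractional counts in all 6 libraries.

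**Figure D2:**
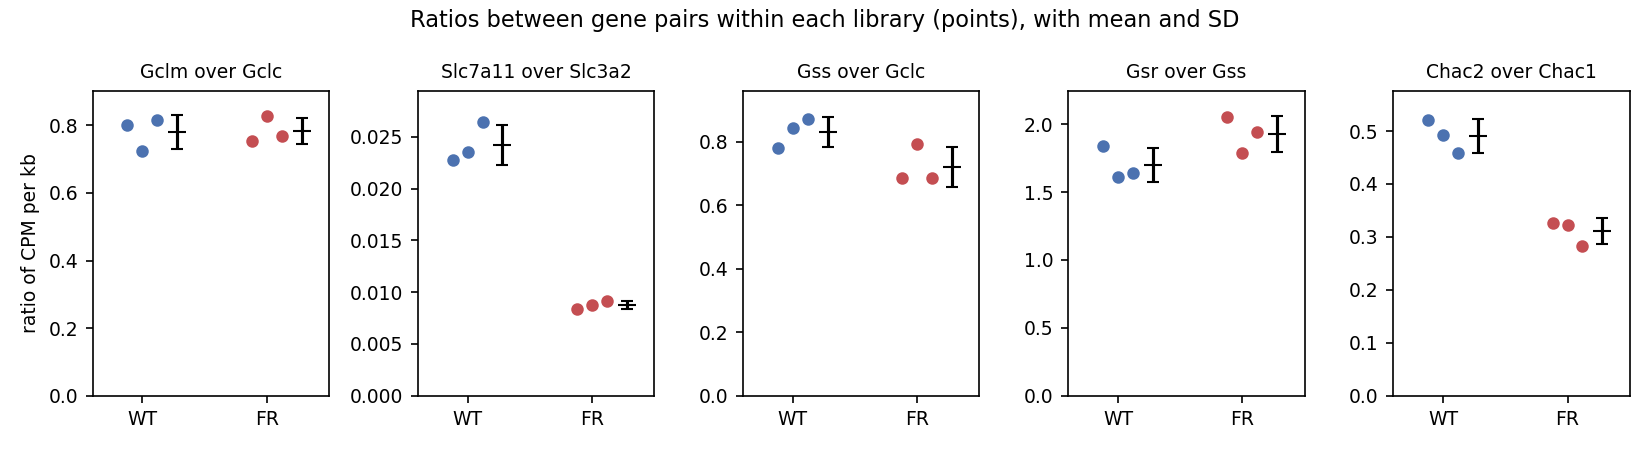
Ratios between pairs of genes within each library, from CPM per kb of gene length, on linear axes that start at 0. Points are the 3 WT and 3 FR libraries with mean and SD beside them. The ratios of Slc7a11 to Slc3a2 and of Chac2 to Chac1 were lower in every FR library than in any WT library, and the other 3 overlap.

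The paired ChaC enzymes, which cleave glutathione in the cytosol, went opposite ways. Chac2 (ENSMUSG00000020309), the constitutive member, had 10.9, 10.5 and 9.91 CPM in WT and 8.57, 9.55 and 8.60 CPM in FR. Its log2 fold change of −0.23 ± 0.10 (SE; 95% interval −0.43 to −0.02) passed narrowly (edgeR adjusted p = 0.0438). The call ended with DESeq2 (adjusted p = 0.117) and when WT1, WT2, FR1 or FR3 was left out (edgeR adjusted p = 0.108, 0.0703, 0.0906 and 0.109). Chac1, the stress-induced member and a known ATF4 target, had 26.0, 26.6 and 26.9 CPM in WT and 32.6, 36.8 and 37.8 CPM in FR, a log2 fold change of 0.44 ± 0.06 (SE; edgeR adjusted p = 1.44e-07).

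The ratio of Chac2 to Chac1 per kb was 0.521, 0.492 and 0.458 in WT and 0.327, 0.323 and 0.283 in FR. It was lower by a factor of 1.58 in FR, and every FR library lay below every WT library (exact two-sided permutation test, p = 0.10, the smallest possible; 0.25 after adjustment over 5 ratios).

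Of the gamma-glutamyltransferase family, Ggt7 was the only one of 4 genes looked at (Ggt1, Ggt5, Ggt6, Ggt7) that passed the filter on low counts. Ggt7 (ENSMUSG00000027603) had 65, 83 and 83 counts in WT and 5, 7 and 9 counts in FR, or 2.38, 3.22 and 3.24 CPM against 0.260, 0.28 and 0.425 CPM. All FR libraries were far below the WT libraries, and the log2 fold change was −3.18 ± 0.31 (SE; 95% interval −3.80 to −2.55; edgeR adjusted p = 2.56e-10). Of all tested genes, 3.18% had a lower fold change. In the GRCm38 annotation 6.04% of the exonic bases of Ggt7 overlap the antisense gene Acss2, an acetyl-CoA synthetase, and strand-specific counting is not stated in the labels. Acss2 itself fell from 20.7 to 7.5 CPM (a log2 fold change of −1.46 ± 0.09 SE). Neither Ggt7 nor Acss2 had a fractional count in any library, and the part of shared reads in the Ggt7 result was not tested. Acss2 also overlaps 6.68% of the exonic bases of Gss.

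Ggt5 (ENSMUSG00000006344), which is known for converting leukotriene C4, had 0, 2 and 0 counts in WT and 3, 0 and 1 counts in FR. No library had more than 3 counts, so no fold is given. Ggt1, the main enzyme of the family in many tissues, had 14, 6 and 8 counts in WT and 1, 5 and 0 counts in FR, without overlap. The filter on low counts left Ggt1 out, and the fit without it gave a log2 fold change of −1.94 ± 0.75 (SE; edgeR adjusted p = 0.0253). Ggt6 had no count in any library.

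Of 7 tested genes for the breakdown of glutathione and the dipeptides made from it, 4 rose, 2 fell and 1 was short of the threshold (median log2 change 0.25). Anpep, the cell-surface aminopeptidase that can cleave cysteinylglycine, fell from 23.5 ± 0.932 to 0.587 ± 0.310 CPM (n = 3 each, SD; fold change on the log2 scale −5.33 ± 0.16 SE). Lap3, a cytosolic leucine aminopeptidase, rose from 124 ± 5.07 to 147 ± 1.68 CPM. Cndp2, a cytosolic dipeptidase, fell by 0.14 on the log2 scale (edgeR adjusted p = 0.0107), a call that ended without WT3 (adjusted p = 0.0557).

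**Figure D3:**
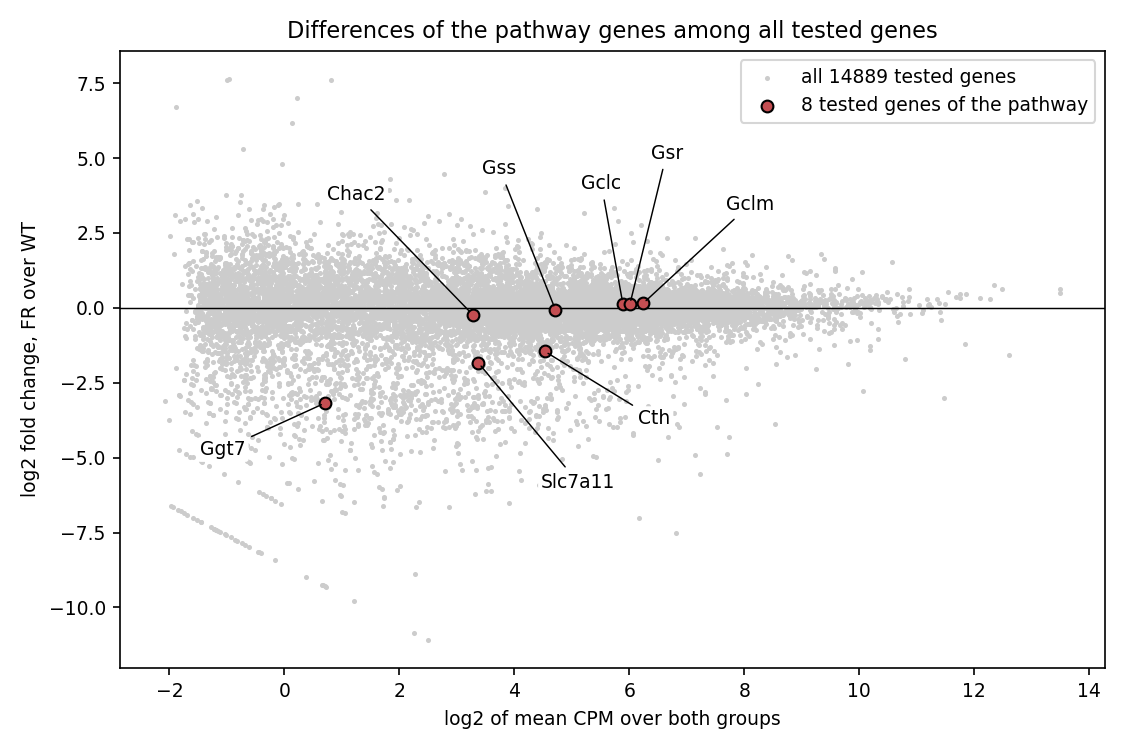
Log2 fold change, FR over WT, against log2 of the mean CPM for all 14889 tested genes (grey) and the 8 tested genes of the set (red). Ggt7, Slc7a11 and Cth lie in the lower part of the cloud at −3.18, −1.84 and −1.45, and the other 5 lie close to the zero line.

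Levels between genes were compared per kb of the deposited gene length. In WT the order of mean CPM per kb was Gsr (23.1), Cth (18.5), Gclc (16.4), Gss (13.7), Gclm (12.8), Chac2 (7.94), Slc7a11 (1.76), Ggt7 (1.13), Cbs (0.0368) and Ggt5 (0.00587). In FR it was Gsr (25.1), Gclc (18.1), Gclm (14.2), Gss (13.1), Cth (6.80), Chac2 (6.77), Slc7a11 (0.490), Ggt7 (0.123), Cbs (0.0266) and Ggt5 (0.0154). Cth moved from the rank below Gsr to a level that did not differ from Chac2 beyond the SD. The neighbours Gss and Gclm overlapped within 1 SD in both groups, as did Cbs and Ggt5 in FR. The deposited length is one value per gene (9223 bases for Slc7a11, 1815 for Cth), so the order depends on the transcripts it stands for.

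**Figure D4:**
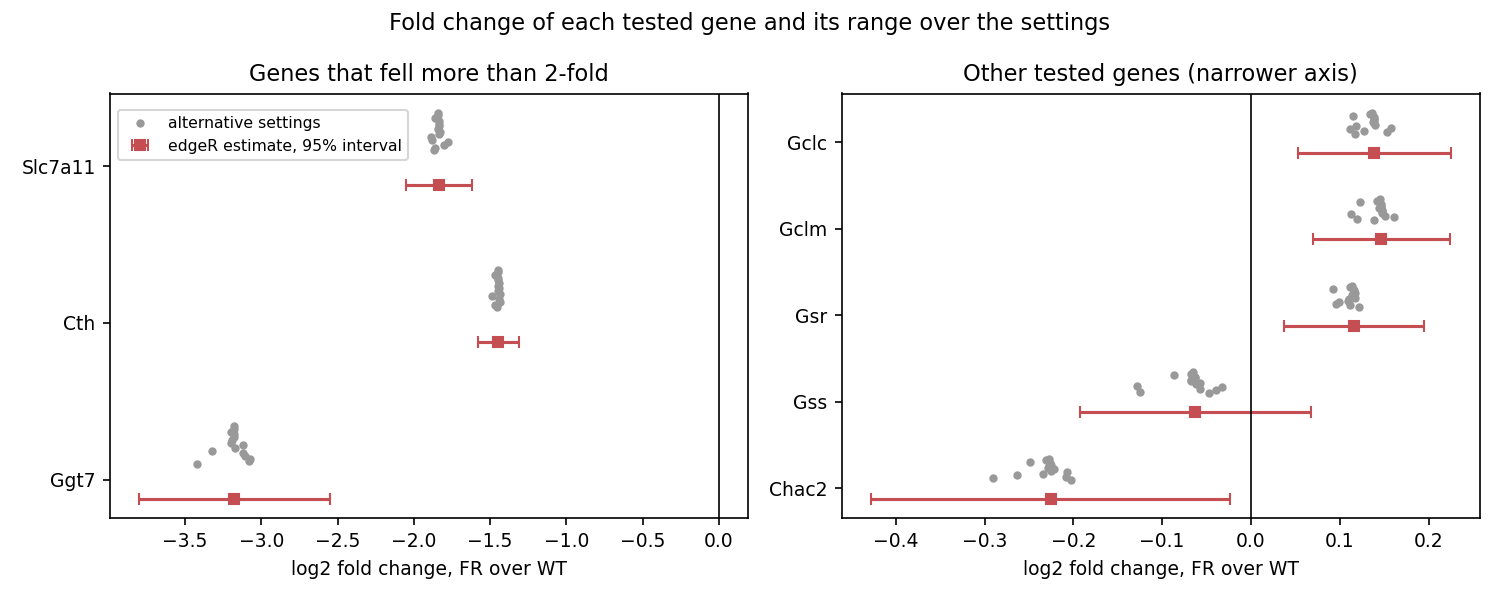
Log2 fold change, FR over WT, of the 8 tested genes. Red squares are the edgeR estimates with 95% intervals, grey points are the 15 alternative settings, and the right panel has a narrower axis. The intervals of Gclc, Gclm and Gsr lie just above 0, that of Chac2 just below, and that of Gss spans 0.

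The genes of transcription factors known to control these genes were compared next. The NRF2 gene Nfe2l2 fell from 127 ± 4.74 to 86.5 ± 2.98 CPM (n = 3 each, SD; fold change on the log2 scale −0.55 ± 0.04 SE; edgeR adjusted p = 5.47e-14), and so did its competitor for DNA, Bach1, from 49.9 ± 2.36 to 38.7 ± 2.47 CPM. The gene for KEAP1, which targets NRF2 for degradation, did not pass (Keap1 log2 fold change 0.01 ± 0.04 SE, 95% interval −0.07 to 0.09, edgeR adjusted p = 0.871). Of 12 tested genes in a list for NRF2 control, 6 rose, 3 fell and 3 were short of the threshold (median log2 change 0.07). The list is not limited to direct regulators of NRF2: it includes Trp53 and Bap1, which are among the 6 that rose. Nfe2l1, a related factor, fell from 422 ± 8.06 to 318 ± 2.17 CPM. Mafk, a small MAF partner, rose from 27.5 ± 1.94 to 46.6 ± 1.09 CPM, and the deubiquitinase gene Bap1 from 92.5 ± 3.27 to 127 ± 6.90 CPM.

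Of 17 other NRF2 target genes, 12 rose, 4 fell and 1 did not pass, which is 70.6% higher against 34.6% of all tested genes (median log2 change 0.25). Gsta4, a glutathione transferase, rose from 50.3 ± 0.979 to 116 ± 1.82 CPM, and Txnrd1, thioredoxin reductase, from 270 ± 4.91 to 445 ± 5.10 CPM (n = 3 each, SD). Nqo1, a quinone reductase often used as a readout of NRF2, fell from 50.9 ± 0.467 to 22.6 ± 0.331 CPM. The others that fell were Me1, given above, Osgin1 (7.59 ± 0.464 to 3.83 ± 0.621 CPM) and Hmox1 (47.2 ± 1.75 to 40.8 ± 2.15 CPM). Of the 10-gene set, which was kept out of this list, Gclc, Gclm, Gsr and Slc7a11 are also known targets: the first 3 rose by the small amounts given above, and Slc7a11 fell 3.57-fold.

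The list for ATF4 held Atf4 itself, 4 kinases that act upstream of it (Eif2ak1, Eif2ak2, Eif2ak3 and Eif2ak4), and genes known as its targets or partners. Atf4 rose from 393 ± 4.65 to 478 ± 4.87 CPM (n = 3 each, SD; fold change on the log2 scale 0.28 ± 0.02 SE; edgeR adjusted p = 3.19e-11). Of the 23 genes of the list, Atf4 and the kinases included, 6 rose, 15 fell and 2 did not pass, which is 65.2% lower against 35.5% of all tested genes (median log2 change −0.24). Ppp1r15a, a phosphatase subunit that ends the stress response, rose from 27.2 ± 1.11 to 44.1 ± 3.02 CPM. Of the kinases, Eif2ak2 fell from 81.0 ± 1.67 to 53.0 ± 0.594 CPM and Eif2ak1 also fell, while Eif2ak3 and Eif2ak4 rose. The list also holds Slc3a2, Slc7a5, Aldh1l2 and Chac1, whose values are given above.

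Genes that use or move glutathione were mixed, with 7 of 17 tested higher, 5 lower and 5 not passing (median log2 change 0.03). Gpx4, the peroxidase that reduces lipid hydroperoxides with glutathione, rose from 231 ± 8.80 to 327 ± 10.3 CPM, and 38.9% of its words are shared, mainly with a pseudogene at a mean of 9.80 counts. Gpx1, the cytosolic peroxidase, fell from 132 ± 3.21 to 62.4 ± 1.39 CPM (n = 3 each, SD). Slc25a39, which carries glutathione into mitochondria, rose from 203 ± 0.435 to 310 ± 1.91 CPM. Glo1, which uses glutathione to detoxify methylglyoxal, fell from 93.4 ± 3.28 to 70.9 ± 0.944 CPM.

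The glutathione metabolism pathway in the deposited annotation, a list that includes 7 of the 10 genes, held 135 genes. Of its 53 tested genes, 26 were higher, 13 lower and 14 short of the threshold (median log2 change 0.14). Over all the lists of neighbouring pathways together, without the 10 genes, 69 of 150 tested genes rose and 55 fell (46.0% and 36.7%).

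**Figure D5:**
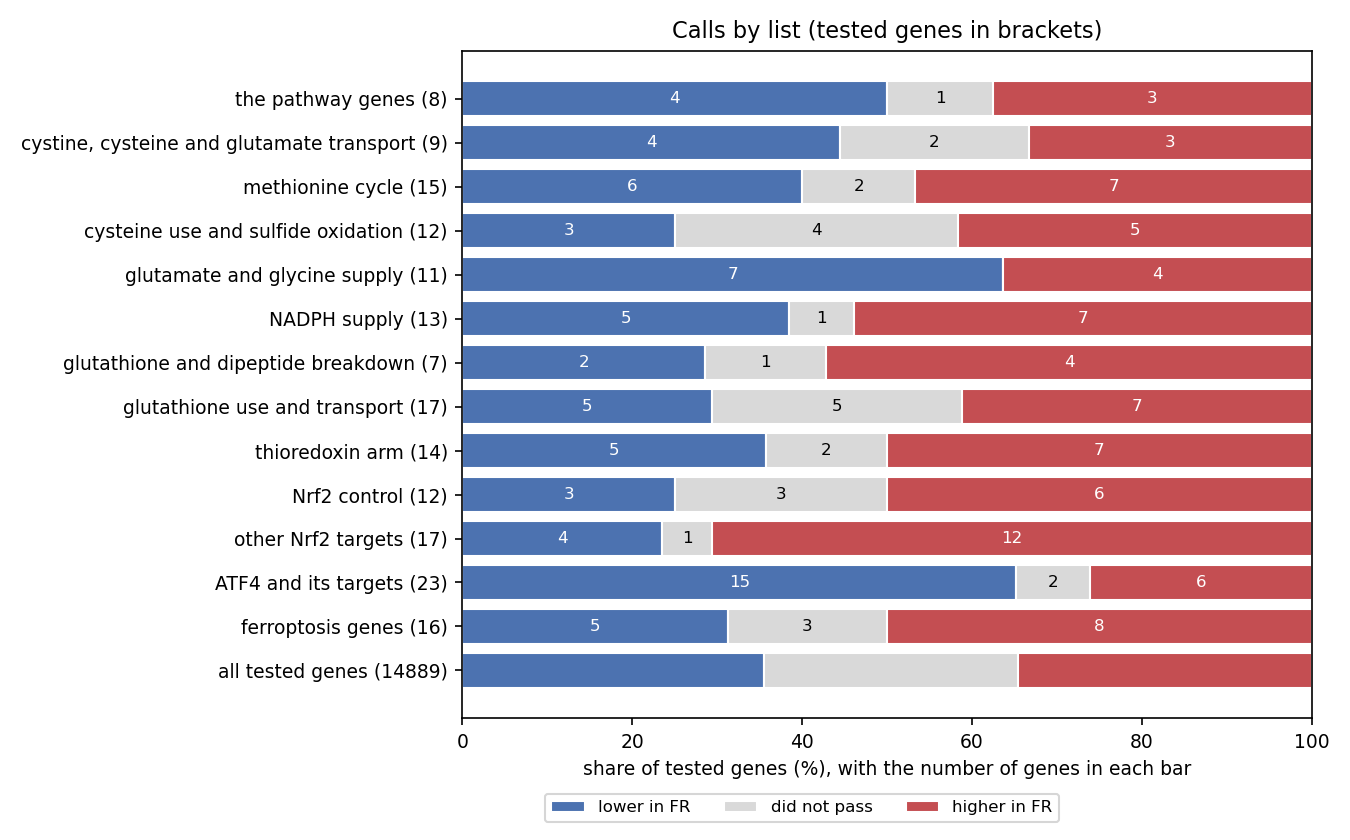
Share of tested genes that were lower in FR, did not pass, or were higher in FR (edgeR adjusted p threshold 0.05), for the 10-gene set, for each list of neighbouring pathway genes, and for all tested genes. Numbers in the bars are genes, and some genes stand in more than one list. The methionine cycle bar counts Ahcy as lower, from its separate counts. The NRF2 target list has the widest higher part (12 of 17) and the ATF4 list the widest lower part (15 of 23). The lower part of the glutamate and glycine supply list (7 of 11) is nearly as wide. All lists were chosen with earlier results of these data known.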

How the data were processed

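The values are expected counts, which the authors deposited in 1 table with a row per gene and a column per library; they are unscaled. Of all values 85.9% are exactly whole, zeros included, and of those above 0 it is 64.0%. No count was listed in any library for 26961 genes. The submitters' processing notes name fastp, HISAT, RSEM and the build GRCm39, and versions, settings and annotation are not given in the sources used here. RSEM divides reads that match several genes by estimation. Group means in the table were not used.

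Expected counts were rounded. The filterByExpr function of edgeR 4.0.16 (R 4.3.3) left 14889 genes, which were scaled with TMM and tested, FR against WT, with the robust quasi-likelihood F-test, Benjamini-Hochberg adjustment and a threshold of 0.05. Standard errors and 95% intervals come from that fit. The 10 genes and all lists were chosen with earlier results of these data known. Every gene of the set is named, as are the 2 genes of smallest adjusted p in each direction of each list with a mean of at least 5 CPM, plus Slc3a2, Chac1, Ggt1, Nfe2l2, Keap1, Bach1, Atf4, Gpx4 and Txnrd1, and further genes for context. Mtrr, Apip, Mri1, Enoph1, Adi1, Ctns, Papss2, Osgin1, Hmox1, Txnip, Acss2 and Gm4737 were named after their values were seen. One gene that the rule names is not reported here.

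Within groups the chi-square per degree of freedom between libraries was 2.34 to 3.37, above sampling noise, so none was counted as a copy. Shared 31-base words and exon overlaps were taken from GENCODE M21 (GRCm38), promoters from RefSeq (GRCm38.p6), and no coordinates of the deposited build are given. The steps were tested on simulated counts. Alternatives were DESeq2 1.42.0, limma-voom (limma 3.58.1), median-of-ratios and library-size scaling, no filter, a stricter filter, the non-robust fit, a block for the replicate number, the 10 most abundant genes left out and each library left out. Adding Gm4737 to Ahcy was chosen after seeing the data.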

Additional observations from a re-analysis of the deposited data

How the results depend on the processing

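Over 15 alternatives, 2 to 3 of the 10 genes were called higher and 3 to 4 lower. Slc7a11, Cth and Ggt7 passed as lower under every one (log2 fold changes −1.89 to −1.78, −1.49 to −1.44 and −3.42 to −3.07), and Gclc and Gclm as higher (largest adjusted p 0.0386 and 0.0225). Gss passed under none (adjusted p 0.102 to 0.708). The Gsr call ended without the filter and the Chac2 call under 6 alternatives (adjusted p up to 0.117). Ahcy reversed to 0.21 with Gm4737 added. Keap1, which did not pass, changed sign without the filter (−0.016) and without single libraries (−0.037 to 0.043). The Gclm to Gclc ratio also changed sign without single libraries (log2 difference −0.049 to 0.038), and the cause was not tested. The ratios of Cth to Cbs and Ggt7 to Ggt5 could not be computed because of zero counts.

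No effect shared by same-numbered libraries was seen: their deviations correlated at −0.017, −0.0039 and −0.028 across genes, and no library correlated best with its own number. Such values cannot settle whether the replicate numbers mark pairs. With the replicate number as a block, 5070 genes were higher and 5222 lower, 3 of the 10 genes higher and 3 lower, and Chac2 had an adjusted p of 0.0545. Low counts limit Cbs (at most 9.09 in a library), Ggt5 (at most 3) and Ggt1 (at most 14). Ggt1 passed as lower once the filter was dropped.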

Other observations

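Genes of neighbouring redox systems that the account above does not cover were also measured. Of 14 tested genes of the thioredoxin arm, which works beside glutathione, 7 rose, 5 fell and 2 were short of the threshold (median log2 change 0.08). Txnip, whose product inhibits thioredoxin, was among those that rose, from 64.4 ± 4.23 to 105 ± 3.80 CPM. Prdx1, a peroxiredoxin, rose from 562 ± 4.44 to 764 ± 13.5 CPM, while the sestrin genes Sesn2 and Sesn1 fell from 57.5 ± 1.09 to 40.4 ± 1.54 CPM and from 50.6 ± 1.37 to 36.9 ± 1.51 CPM (n = 3 each, SD).

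Of 16 tested genes linked to ferroptosis, the form of cell death that glutathione and GPX4 restrain, 8 rose, 5 fell and 3 were short of the threshold (median log2 change 0.19). Tfrc, the transferrin receptor, rose from 172 ± 5.28 to 351 ± 3.26 CPM, and Ncoa4, which delivers ferritin for degradation, from 144 ± 1.10 to 247 ± 3.57 CPM. Sat1, of polyamine breakdown, fell from 73.7 ± 1.23 to 43.1 ± 1.81 CPM, and Lpcat3, which loads polyunsaturated fatty acids into phospholipids, from 52.9 ± 1.03 to 31.5 ± 0.963 CPM (n = 3 each, SD). By edgeR the largest adjusted p of the 4 was 2.56e-14, for Lpcat3.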
